A study of Homo sapiens with 4 samples.

Results

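The amino acid response genes of ATF4 are the transcripts that a cell raises when amino acids run short or when proteins misfold in the endoplasmic reticulum. A list of 32 such genes was taken by symbol through the platform annotation, from regulators to amino acid synthesis, transport and tRNA synthetases. All 32 had a probe, and they held 45 of the 47315 probes and 32 of the 20044 genes named on the array. RNA came from SW1990 and Panc-1, human pancreatic cancer cell lines, each separated into CD166+ and CD166- cells with a phycoerythrin-labelled antibody, magnetic beads and an automated separator. CD166 is the adhesion molecule ALCAM, and its negative cells were collected by depletion. The groups are thus CD166+ cells of SW1990, CD166- cells of SW1990, CD166+ cells of Panc-1 and CD166- cells of Panc-1, all from culture, each measured on 1 Illumina bead array of total RNA, with no agent or genetic change named in the labels. Since each population has 1 array, a difference within a line has no replicate check, and no p-value was computed for it.

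In this pathway the kinases GCN2, which senses uncharged tRNA, and PERK, which senses unfolded protein in the endoplasmic reticulum, phosphorylate the translation factor eIF2. General protein synthesis then slows while the ATF4 mRNA is translated more, so the ATF4 protein is set largely at translation and its mRNA need not follow it. ATF4 pairs with C/EBP proteins on composite elements in its target promoters, and the targets restore amino acids, charge tRNA or, when stress persists, favour growth arrest and cell death.

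Signals are mean bead intensities after background correction and quantile normalization, on a linear scale, and a gene is described by its brightest probe. A gene counted as different where its signals were over 2-fold apart and the brighter array detected it at a detection p under 0.01. Where the dimmer array did not detect the gene, its signal was set to the lowest signal among detected probes of that array, or kept where higher, and the fold is written as at least that value. Detected probes numbered 15565 to 16716 over the 4 arrays, and mean intensities before normalization lay between 325 and 413. For ALCAM the CD166+ cells exceeded the CD166- cells by 6.20-fold in SW1990 and by 5.29-fold in Panc-1. The SW1990 arrays stood apart from each other. Across 11640 genes the CD166- array correlated better with the Panc-1 CD166+ and CD166- arrays (Pearson r of 0.874 and 0.872) than with the SW1990 CD166+ array (0.827), which itself had an r of 0.834 with Panc-1 CD166+ and 0.817 with Panc-1 CD166-, while the Panc-1 arrays had an r of 0.989. The Panc-1 CD166+ array had signal at probes bright in SW1990 CD166+ cells and undetected in both CD166- populations, at a median of 2.70% of the SW1990 CD166+ signal over 28 probes. Genes that both lines express with CD166 would also meet this rule, and the source of the signal was not tested. Among epithelial markers, 4 of 6 detected were over 2-fold higher with CD166 in SW1990, beside 13.6% of all genes. The 7 epithelial markers with a probe summed to signals of 8952 on the SW1990 CD166+ array, 5821 on its CD166- array, 13589.8 on the Panc-1 CD166+ array and 16925 on its CD166- array. CDH1, the cadherin that defines epithelia, was not detected on any array. Fibroblast markers summed to 833, 2368, 660.2 and 583 in the same order, with COL3A1, DCN, LUM, PDGFRA and FAP not detected on any array. The high sum in SW1990 CD166- cells was that of COL1A2, a chain of type I collagen, which had a signal of 2148 there and was not detected on the other 3 arrays. The other fibroblast markers detected in SW1990 lay the other way, with signals in CD166+ cells of 218 for COL1A1, the partner chain, 131 for PDGFRB, a growth factor receptor, and 328 for ACTA2, smooth muscle actin, and none detected in CD166- cells (at least 5.24-fold, 3.16-fold and 7.90-fold). Leukocyte and endothelial markers summed to 567, 1069, 1381 and 1377, and PTPRC, CD3E and VWF were not detected on any array. Most of each sum was CD68, with signals of 387, 860, 1203 and 1209, 2.22-fold lower in CD166+ than in CD166- cells of SW1990. CD14 was detected on each array, at signals between 43.8 and 58.7. PECAM1 was detected on the SW1990 CD166+ array alone and CDH5 on the SW1990 CD166- array alone, at signals of 42.7 and 44.1. Both lay just above the lowest detected signals of those arrays, 39.1 and 41.5. Whether the array labelled SW1990 CD166- holds cells of that line was not tested, so each fold within SW1990 is one between arrays so labelled. The part of these differences in the results on SW1990 was not tested, and in bulk RNA fewer cells of a type and less RNA per cell cannot be told apart.

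The promoter windows of 6 members are shown because these members lay over 2-fold apart between the sorted populations of SW1990 and hold a match to TGATGNAA, the core of the composite element to which ATF4 and C/EBP proteins bind. The windows are RefSeq sequences of build GRCh38.p14 and run from 250 bases before to 50 bases after a start site, 5′ to 3′ along the gene, with the match in capitals.
ASNS, chr7:97872359-97872658, minus strand: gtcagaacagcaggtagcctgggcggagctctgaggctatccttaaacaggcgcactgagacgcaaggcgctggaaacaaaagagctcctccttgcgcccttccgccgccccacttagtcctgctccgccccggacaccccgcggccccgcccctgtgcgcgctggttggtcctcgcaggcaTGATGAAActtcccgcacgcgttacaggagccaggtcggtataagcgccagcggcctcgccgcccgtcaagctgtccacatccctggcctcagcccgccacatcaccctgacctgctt
GARS1, chr7:30594628-30594927, plus strand: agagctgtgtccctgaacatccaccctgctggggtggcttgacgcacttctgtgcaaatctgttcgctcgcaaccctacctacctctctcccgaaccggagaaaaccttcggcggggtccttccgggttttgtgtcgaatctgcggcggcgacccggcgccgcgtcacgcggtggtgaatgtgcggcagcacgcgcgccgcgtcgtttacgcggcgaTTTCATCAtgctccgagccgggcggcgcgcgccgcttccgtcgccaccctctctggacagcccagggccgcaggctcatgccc
SLC7A1, chr13:29595639-29595938, minus strand: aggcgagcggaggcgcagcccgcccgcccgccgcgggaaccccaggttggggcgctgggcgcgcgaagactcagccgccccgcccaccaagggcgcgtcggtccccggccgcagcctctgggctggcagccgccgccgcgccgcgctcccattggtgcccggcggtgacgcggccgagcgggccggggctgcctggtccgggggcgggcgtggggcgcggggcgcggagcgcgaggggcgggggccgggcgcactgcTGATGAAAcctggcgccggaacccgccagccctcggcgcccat
SLC1A5, chr19:46784765-46785064, minus strand: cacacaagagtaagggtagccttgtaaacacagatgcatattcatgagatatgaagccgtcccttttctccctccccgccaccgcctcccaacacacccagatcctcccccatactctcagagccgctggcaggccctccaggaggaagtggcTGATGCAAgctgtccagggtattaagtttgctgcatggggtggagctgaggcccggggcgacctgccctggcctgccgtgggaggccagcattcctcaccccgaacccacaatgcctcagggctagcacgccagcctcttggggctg
ATF3, chr1:212565157-212565456, plus strand: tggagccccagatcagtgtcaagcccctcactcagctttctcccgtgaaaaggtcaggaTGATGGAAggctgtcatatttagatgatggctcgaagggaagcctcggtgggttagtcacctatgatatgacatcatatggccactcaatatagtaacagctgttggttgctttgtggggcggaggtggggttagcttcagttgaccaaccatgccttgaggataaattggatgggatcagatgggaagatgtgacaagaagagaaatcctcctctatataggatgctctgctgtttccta
JDP2, chr14:75427772-75428071, plus strand: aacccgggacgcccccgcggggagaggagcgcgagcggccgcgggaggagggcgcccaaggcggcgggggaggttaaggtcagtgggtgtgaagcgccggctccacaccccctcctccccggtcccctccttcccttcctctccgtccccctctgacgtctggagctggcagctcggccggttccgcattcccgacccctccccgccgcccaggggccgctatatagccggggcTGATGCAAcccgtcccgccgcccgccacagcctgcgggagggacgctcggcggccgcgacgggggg
Both strands were searched, so that in GARS1 the capitals show the reverse complement of the motif. Relative to the start site of the window shown, the match begins 68 bases before it in ASNS, 33 in GARS1, 97 in SLC1A5, 191 in ATF3 and 16 in JDP2. In SLC7A1 it begins at base 8 after the start. Except in SLC7A1, these genes have further windows, which held no match. For SLC1A5 these include the window at the 5′ end of the gene, chr19:46788545-46788844, so the match shown belongs to a start site inside the gene. The windows shown for ASNS, GARS1 and JDP2 likewise belong to start sites inside the annotated bounds of these genes. Those of ATF3 and SLC7A1 belong to the start site at the 5′ end. A window was found for 29 of the 32 members, and 14 of these 29 genes held a match in at least 1 of their windows, or 48.3%. Of 27305 genes with windows of the same length, 4.46% held one. Counted by window, 29.8% of the 47 windows of members and 3.62% of all 35116 windows held a match. The members were listed as genes of the ATF4 response and the motif is the element of ATF4, so the higher share is a description and not a test. Among members with a window, a match stood in 4 of the 5 that were over 2-fold higher without CD166 in SW1990, in 2 of the 6 that were over 2-fold higher with it and in 8 of the 18 others. A match thus occurred among members on both sides of the sort. By role, 6 of 9 tRNA synthetases and 3 of 5 transporters held a match, against 3 of 7 regulators. A match describes these letters and is not a measurement of binding.

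Of the 30 members detected on either SW1990 array, the CD166+ cells were over 2-fold above the CD166- cells for 6 and over 2-fold below them for another 6, or 20% each way, beside 13.6% and 14.2% of all 10783 genes detected, shares not far from those of the members. At 1.5-fold 7 members were higher and 11 lower with CD166, beside 23.8% and 25.1% of genes, and at 3-fold 3 were higher and 0 lower, beside 6.41% and 6.51%. The 6 higher in CD166+ cells were the regulators ATF3, CEBPB and JDP2, the stress outputs DDIT4 and STC2, and the serine synthesis enzyme PHGDH. The 6 higher in CD166- cells were ASNS, PSPH, SLC7A1, SLC1A5, SLC38A2 and GARS1, which make, import or load amino acids. The roles were joined into a pair of groups after their values had been seen, so the groups' counts are a description. Among the 11 detected regulators and stress outputs, 5 were over 2-fold higher and 0 lower with CD166, 7 lay above 0 and 4 (ATF4, CEBPG, NUPR1 and PPP1R15A) below it, and the median log2 fold was 0.77. Among the 19 detected genes of synthesis, transport and tRNA charging, 1 was over 2-fold higher and 6 were lower, 3 lay above 0 and 16 below it, and the median log2 fold was -0.71. The signs of CEBPG, PSAT1, SLC7A5, SLC3A2 and SARS1 among these turned under another scaling. Over all 30 the median was -0.44, beside -0.021 over all genes. In Panc-1 no member was over 2-fold apart in either direction, where 0.598% of 10532 genes were over 2-fold higher with CD166 and 0.408% without it. Subtracting the estimated share of SW1990 CD166+ signal from the Panc-1 CD166+ array brought no member past 2-fold. By the brightest probe of each gene, the largest difference of a member in Panc-1 was 1.28-fold. By the same probes 15 of 30 differed by under 1.1-fold, with a median log2 fold of 0.021 beside -0.0046 for all genes.

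**Figure D1:**
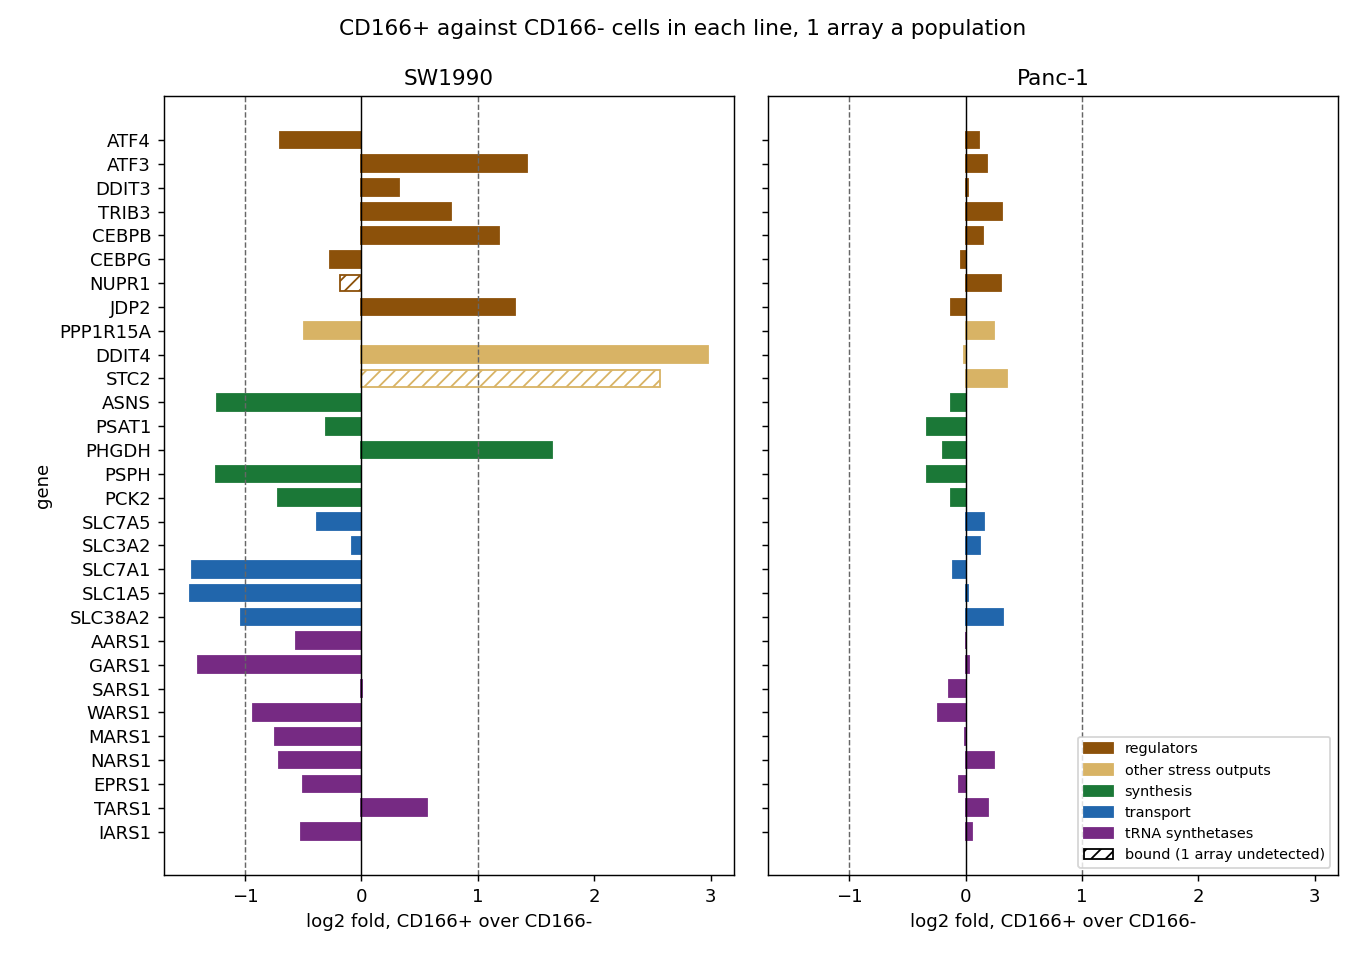
Log2 fold of CD166+ over CD166- signal (horizontal axis) for the 30 detected members (rows, coloured by role) in SW1990 (left) and Panc-1 (right), from 1 array for each population. Dashed lines mark 2-fold and hatched bars are bounds; in SW1990 the bars pass the lines for 12 genes, 6 on each side, and in Panc-1 for none.

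ATF4 itself was detected on each array, with signals of 3634 and 5897 on the CD166+ and CD166- arrays of SW1990 and of 5427 and 5003 on those of Panc-1. In CD166+ against CD166- cells it was 1.62-fold lower in SW1990, whereas Panc-1 showed a difference of 1.08-fold the other way, both within 2-fold. Its other probes read 86.0 against 232, and 198 against 276, in SW1990, so that all 3 probes were lower in CD166+ cells, at log2 folds of -0.70, -1.43 and -0.48. Counting ATF4, 20 of the 30 detected members lay below 0 in SW1990, among them 16 of the 19 genes of synthesis, transport and tRNA charging. Over all genes, 5395 lay below 0 and 5239 above it. In these values the ATF4 mRNA was on the same side as most members and on the opposite side from several of its partners and targets. With each array scaled to its median instead, ATF4 stood at a log2 fold of -0.22, and 4 of the members below 0 turned above it. ATF3, an ATF family repressor that ATF4 induces, had signals of 212, 79.2, 113 and 99.6 on the CD166+ and CD166- arrays of SW1990 and then those of Panc-1, the order kept below. SW1990 CD166+ cells were highest, at 2.67 times the CD166- cells, and the other 3 populations lay between 79.2 and 113. The remaining ATF3 probes were not detected on any array. CEBPB, a C/EBP protein that dimerizes with ATF4, had signals of 4381, 1931, 2578 and 2329.5. The CD166+ cells exceeded the CD166- cells by 2.27-fold in SW1990 and by 1.11-fold in Panc-1. JDP2, a repressor that binds AP-1 and ATF sites, had signals of 119, 47.6, 96.1 and 105, a 2.50-fold difference in SW1990 in which the CD166- cells were the low population.

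DDIT3, or CHOP, the factor that turns a lasting stress response towards cell death, had signals of 105, 83.8, 403 and 396. The sorted populations of a line were alike, at 1.25-fold and 1.02-fold, and the lines were not. TRIB3, a pseudokinase that restrains ATF4, had signals of 785, 459.8, 1278 and 1026, with CD166+ above CD166- cells in both lines, by 1.71-fold and 1.25-fold. CEBPG, another dimerization partner, had signals of 465, 561, 770.2 and 789.8. NUPR1, a small nuclear stress protein, was not detected in SW1990 CD166+ cells and had signals of 44.3, 104 and 84.1 on the other 3 arrays, the first of which lay just above the floor of 41.5. Its other probe was detected on the Panc-1 CD166+ array alone.

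Of the stress outputs, DDIT4, which inhibits the growth kinase mTORC1, had the largest fold in SW1990 among the members detected on both of its arrays. Its signals were 3747, 477, 1602 and 1620.2, so that CD166+ cells of SW1990 were 7.86-fold above CD166- cells while the Panc-1 populations differed by 1.01-fold. STC2, a secreted glycoprotein induced by endoplasmic reticulum stress, had signals of 245, 723 and 565 on the SW1990 CD166+ array and the Panc-1 arrays in turn and was not detected in SW1990 CD166- cells. The difference within SW1990 was at least 5.91-fold and that in Panc-1 was 1.28-fold. PPP1R15A, or GADD34, the phosphatase subunit that reverses eIF2 phosphorylation, had signals of 712, 1005, 1173 and 989.5 and was 1.41-fold lower in CD166+ cells of SW1990. CHAC1, a glutathione-degrading enzyme, was not detected on any array.

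**Figure D2:**
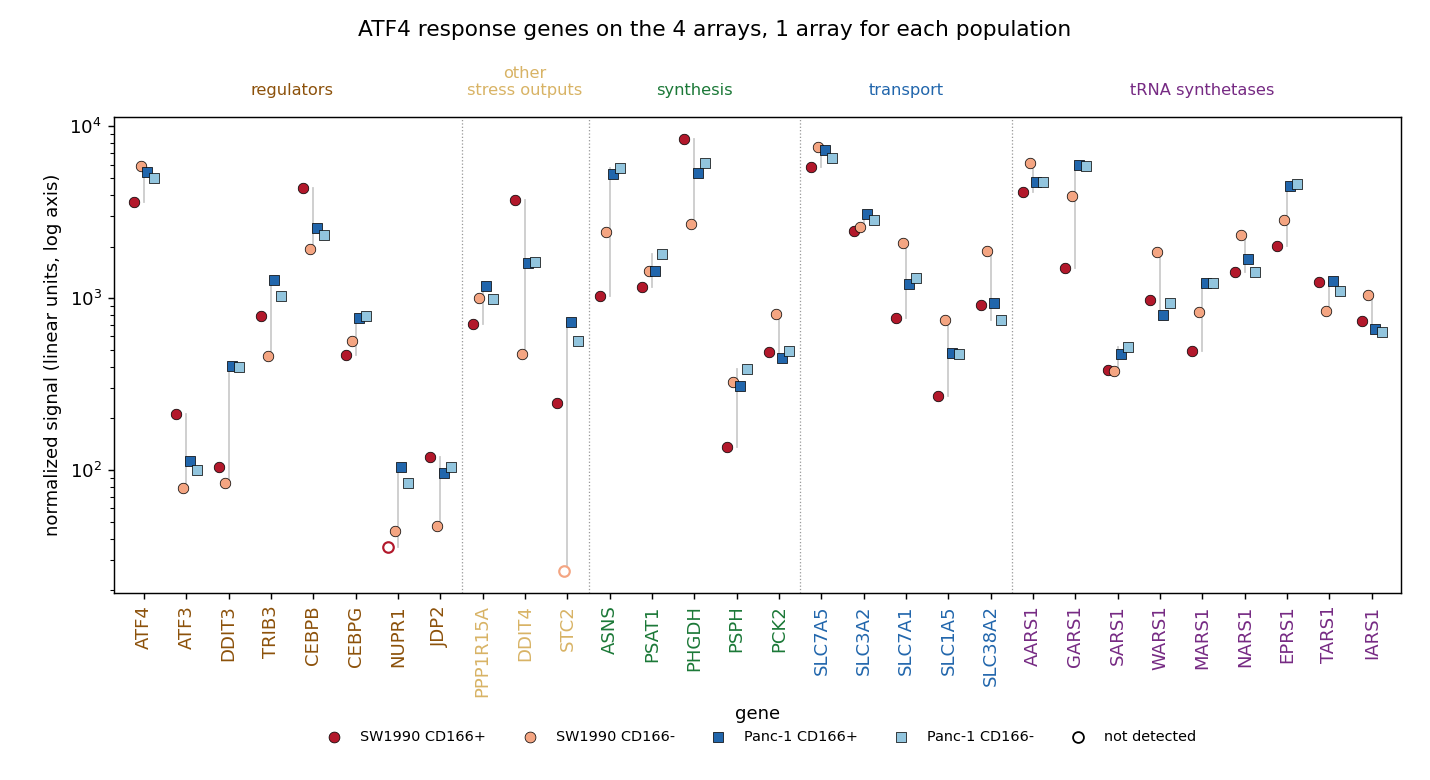
Normalized signal (vertical log axis, linear units) of the 30 detected members on the 4 arrays, 1 point for each array, with open points for arrays that did not detect the gene. For DDIT4 the SW1990 populations (3747 and 477) lie above and below the Panc-1 populations (1602 and 1620.2), and for DDIT3 both SW1990 points lie below both Panc-1 points.

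The enzymes of amino acid synthesis did not move as a block in SW1990. ASNS, which makes asparagine from aspartate and glutamine, had signals of 1026, 2429, 5262 and 5735. It was 2.37-fold lower in CD166+ than in CD166- cells of SW1990 and 1.09-fold lower in Panc-1. The other ASNS probe pointed the same way in SW1990 with a smaller difference, 232 against 361, a log2 fold of -0.64. Serine is made from a glycolytic intermediate in 3 steps by PHGDH, PSAT1 and PSPH in turn, and these steps went different ways. PHGDH had signals of 8486, 2722, 5369 and 6129 and stood 3.12-fold above the CD166- cells in SW1990 CD166+ cells. PSAT1 had signals of 1164, 1441, 1437 and 1812 and differed by 1.24-fold in SW1990 and 1.26-fold in Panc-1. PSPH had signals of 137, 324, 308 and 388 and was 2.37-fold lower in CD166+ cells of SW1990. PSPH has a near-identical pseudogene, and the share of its signal on this probe was not tested. The other PSPH probe read 73.4 and 147 in SW1990 CD166+ and CD166- cells, a log2 fold of -0.999, while the other PSAT1 probe was not detected on any array. PCK2, the mitochondrial enzyme that makes phosphoenolpyruvate, had signals of 489.8, 807, 449.9 and 490.5. Its 3 probes disagreed in SW1990, with log2 folds of -0.72, -0.24 and 0.51, and it was the exception among 6 members with several probes detected on both SW1990 arrays, since the probes of the other 5 had the same sign. ALDH1L2, which oxidizes a folate intermediate in mitochondria, was not detected on any array. In Panc-1 the 5 detected enzymes lay at log2 folds between -0.33 and -0.12 by their brightest probes. Among their other probes detected on both Panc-1 arrays, that of ASNS stood at 0.15, that of PSPH at -0.0073 and that of PCK2 at -0.37.

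Amino acid transporters were the role with the lowest median in SW1990, a log2 fold of -1.03. SLC1A5, or ASCT2, which carries glutamine, had signals of 269.95, 751, 479.8 and 473. SW1990 CD166+ cells were the low population and SW1990 CD166- cells the high one, 2.78-fold apart, with Panc-1 between them. SLC7A1, or CAT-1, which carries arginine and lysine, showed the same order, with signals of 765, 2101, 1209 and 1307 and a 2.75-fold difference. SLC38A2, or SNAT2, which carries small neutral amino acids and is induced by starvation, had signals of 918, 1876, 939 and 750.5, with SW1990 CD166- cells alone standing high, 2.04-fold above CD166+ cells. The subunits of the leucine exchanger differed little. SLC7A5, or LAT1, the subunit that carries the amino acid, had signals of 5804, 7558, 7313 and 6547, a 1.30-fold difference in SW1990. SLC3A2, its heavy chain, had signals of 2460.3, 2608, 3096 and 2847, a 1.06-fold difference. In Panc-1 the 5 transporters lay between log2 folds of -0.11 and 0.32.

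Of the 9 cytosolic tRNA synthetases, the enzymes that join an amino acid to its tRNA, 7 were lower in CD166+ than in CD166- cells of SW1990, and 1 passed 2-fold. GARS1, for glycine, had signals of 1493, 3944, 5993 and 5863, a 2.64-fold difference in SW1990 against 1.02-fold in Panc-1. WARS1, for tryptophan, had signals of 981, 1867, 795 and 934, 1.90-fold lower in CD166+ cells of SW1990, and its other probe gave a log2 fold of -1.30. AARS1, EPRS1, IARS1, MARS1 and NARS1, for alanine, glutamate with proline, isoleucine, methionine and asparagine, were 1.42-fold to 1.68-fold lower. SARS1, for serine, had signals of 379.9 and 379.8 in CD166+ and CD166- SW1990 cells, which were nearly equal. TARS1, for threonine, had signals of 1241, 839, 1263 and 1107 and was the synthetase higher in CD166+ cells of SW1990, by 1.48-fold. The median log2 fold of the 9 was -0.57 in SW1990 and 0.00 in Panc-1, where they ranged from -0.23 to 0.25.

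These directions depend in part on how the SW1990 arrays are scaled. Scaling each array to its median in place of quantile normalization moved the median of all genes in SW1990 from -0.021 to 0.21 on the log2 scale, and the linearly scaled table that was also deposited moved it to -0.16. The split of all genes over 2-fold apart, 1462 higher and 1530 lower in CD166+ cells, became 2220 and 1145 in the median-scaled values and 917 and 1221 in the scaled table. Relative to the median of all genes, the 11 regulators and stress outputs stood at log2 folds of 0.79, 0.91 and 0.71 in the quantile-normalized, median-scaled and linearly scaled values, and the 19 genes of synthesis, transport and charging at -0.69, -0.50 and -0.45. In the same order 5, 6 and 3 regulators and stress outputs were over 2-fold higher and 0 lower, and 1 other gene was higher against 6, 4 and 5 lower. CEBPG, PSAT1, SLC7A5 and SLC3A2, all under 2-fold apart, turned to log2 folds of 0.042, 0.088, 0.11 and 0.37 in the median-scaled values, and ASNS and SLC38A2 no longer passed 2-fold there. ATF3, JDP2 and SLC38A2 did not pass 2-fold in the linearly scaled table, nor, with PSPH, without background correction, JDP2 did not with an offset of 50, and ATF3 and ASNS did not when the probes of a gene were averaged. SLC3A2 and SARS1 turned to 0.046 and -0.059 in the linearly scaled table.

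Other genes of the pathway were described from lists beside the members. Among 14 detected eIF2 kinases, eIF2 subunits and their regulators, 0 were over 2-fold higher and 1 was lower in CD166+ cells of SW1990, with a median log2 fold of -0.18. The 1 was EIF2AK4, which encodes GCN2, with signals of 283, 802, 673 and 655, 2.84-fold lower in SW1990 CD166+ cells and 1.03-fold apart in Panc-1. Among 20 other ATF4 targets, 4 were higher and 1 was lower, or 20% and 5%, with a median of -0.060. In CD166+ over CD166- cells of SW1990, CEBPD, a C/EBP factor, was 3.49-fold higher, SLC7A11, the cystine carrier, at least 3.43-fold, KLHL24, a ubiquitin ligase adaptor, 2.04-fold, and GDF15, a secreted stress hormone, at least 2.02-fold. The last 3 rest on dim signals, since SLC7A11 and GDF15 were not detected in SW1990 CD166- cells and KLHL24 had a signal of 48.9 there. SLC7A6, a basic and neutral amino acid carrier, was 2.75-fold lower. MTHFD2, of the mitochondrial folate cycle, had signals of 475, 846, 1109.6 and 1109.9, and SESN2, which signals leucine shortage to mTORC1, had signals of 39.9, 47.0, 79.4 and 47.6, within 2-fold in both lines. The 9 other cytosolic synthetases and 16 mitochondrial synthetases had medians of -0.43 and -0.27 in SW1990, with 0 over 2-fold apart.

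Chaperones of the endoplasmic reticulum and related genes are targets of the other branches of the unfolded protein response, which work through XBP1 and ATF6. Of the 16 detected, 0 were over 2-fold higher and 4 were over 2-fold lower in SW1990 CD166+ cells, beside 13.6% and 14.2% of all genes. Of the 16, 12 lay below 0 and the median log2 fold was -0.75, beside -0.021 over all genes. The chaperones HSPA5 and HYOU1 were 2.80-fold and 2.04-fold lower, the oxidoreductase PDIA4 3.06-fold lower and the lectin chaperone CANX 2.87-fold lower. HSPA5 had signals of 340.2, 954, 925 and 868, with SW1990 CD166+ cells alone standing low. In Panc-1, 0 genes of these 5 lists were over 2-fold apart, beside 0.598% of all genes over 2-fold higher with CD166 and 0.408% without it.

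**Figure D3:**
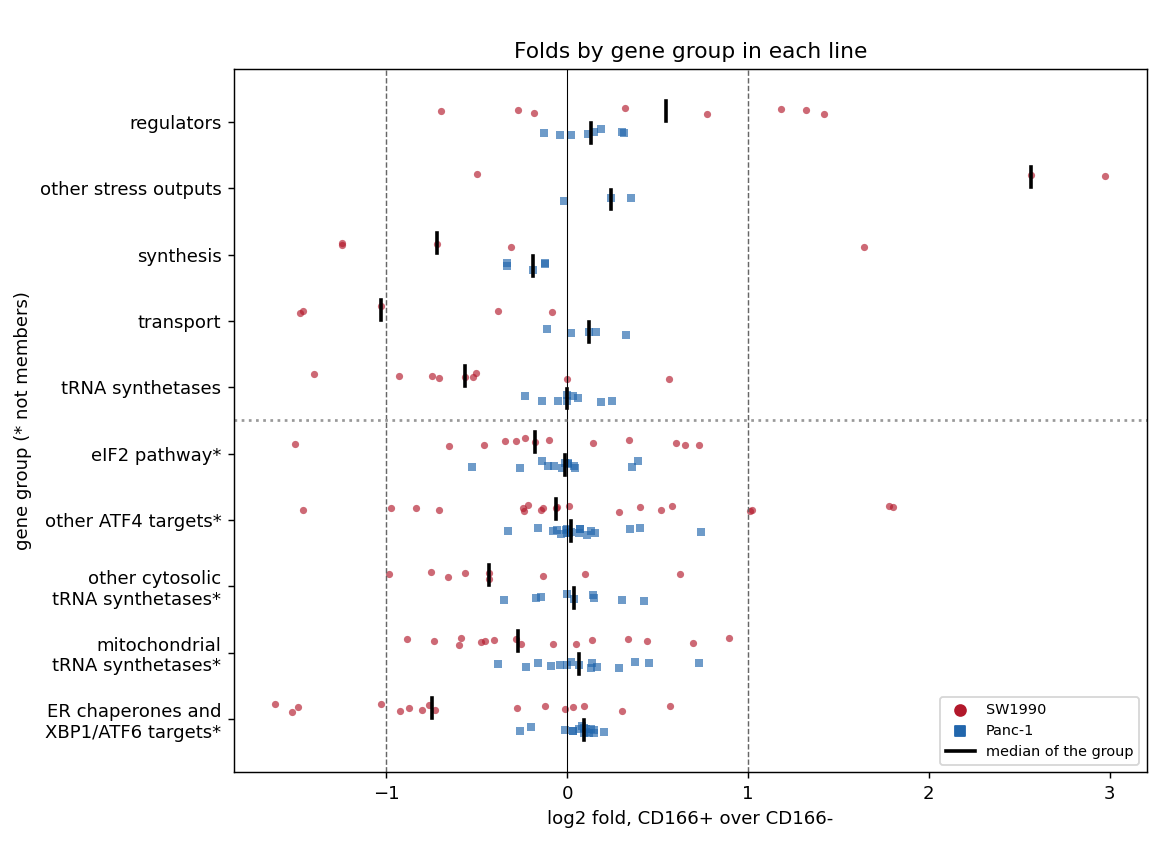
Log2 fold of CD166+ over CD166- signal (horizontal axis) for each detected gene of the member roles (upper rows) and of 5 other lists (lower rows, marked with an asterisk) in SW1990 (circles) and Panc-1 (squares). Black ticks are group medians; in SW1990 they run from 2.56 for the stress outputs, where 2 of 3 genes are high, to -1.03 for transport, and in Panc-1 from 0.25 to -0.19.

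Between the lines, no member was over 2-fold higher in SW1990 than in Panc-1 in both sorted populations, beside 3.34% of 10173 genes. Over 2-fold higher in Panc-1 in both populations were 3 members, DDIT3, STC2 and ASNS, or 3 of 30 beside 6.32% of genes. At 1.5-fold 6 members were, beside 12.1%, and at 3-fold 1, beside 3.14%. DDIT3 was 3.85-fold higher in Panc-1 among CD166+ cells and 4.73-fold among CD166- cells, with both SW1990 signals below both Panc-1 signals. STC2 was 2.95-fold higher in Panc-1 among CD166+ cells and at least 13.6-fold among CD166- cells. ASNS was 5.13-fold and 2.36-fold higher. In CD166+ cells alone 8 of 30 members were higher in Panc-1, beside 14.2% of genes, and 1, DDIT4, in SW1990, beside 12.9%. The other 5 of the 8 were NUPR1, at least 2.66-fold, GARS1, 4.02-fold, MARS1, 2.48-fold, PSPH, 2.26-fold, and EPRS1, 2.22-fold. In CD166- cells 7 of 30 were higher in Panc-1, beside 12.1% of genes, and 1, SLC38A2, was 2.50-fold higher in SW1990, beside 10.6%. Besides the shared 3, the 7 were DDIT4, 3.40-fold, PHGDH, 2.25-fold, TRIB3, 2.23-fold, and JDP2, 2.20-fold. The comparison in CD166+ cells uses the SW1990 CD166- array only through the joint normalization and the choice of each gene's probe. The comparison in CD166- cells and the whole contrast within SW1990 rest on that array directly.

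**Figure D4:**
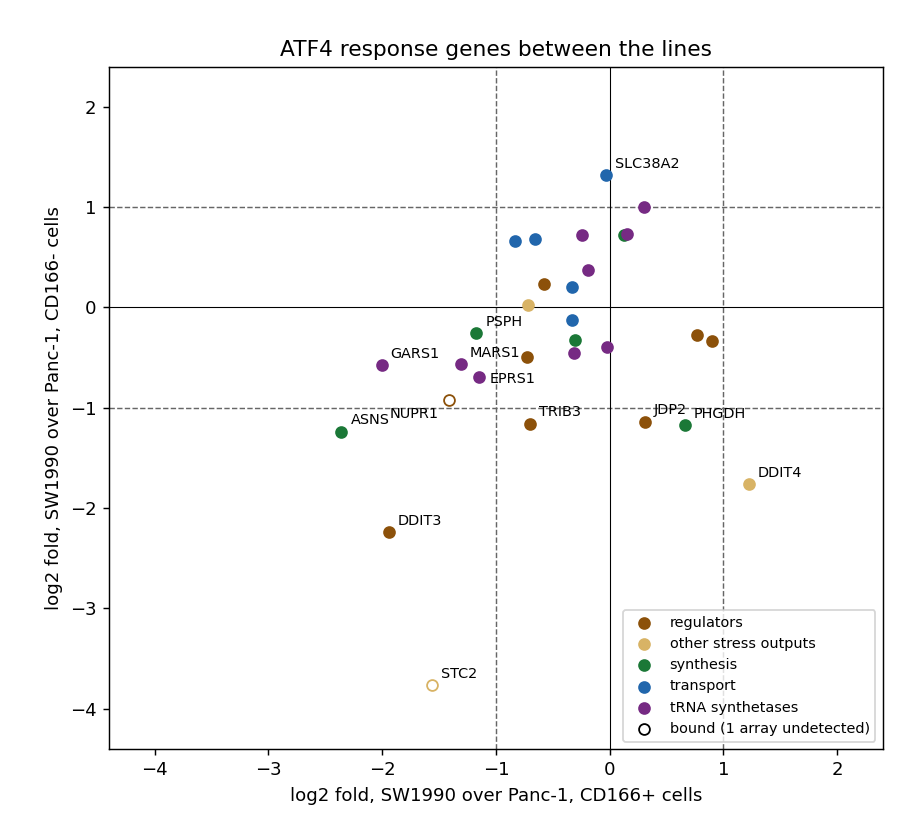
Log2 fold of SW1990 over Panc-1 signal in CD166+ cells (horizontal axis) and in CD166- cells (vertical axis) for the 30 detected members, 1 point a gene, coloured by role, with open points where 1 array did not detect the gene. DDIT3, STC2 and ASNS lie beyond 2-fold (dashed lines) on both axes, and DDIT4 lies on opposite sides, 2.34-fold higher in SW1990 among CD166+ cells and 3.40-fold lower among CD166- cells.

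DDIT4 is one of the members for which the SW1990 populations bracketed Panc-1. Among the 28 members detected on all 4 arrays, both Panc-1 signals lay between the SW1990 signals for 10, or 35.7%, beside 28.9% of 8114 genes detected on all 4. These were ATF4, ATF3, CEBPB, JDP2, DDIT4, PHGDH, SLC7A5, SLC7A1, SLC1A5 and AARS1. The median absolute log2 difference of the 28 was 0.73 between the SW1990 populations and 0.13 between the Panc-1 populations, beside 0.56 and 0.15 for all such genes. From SW1990 CD166+ cells it was 0.66 to Panc-1 CD166+ and 0.47 to Panc-1 CD166- cells, beside 0.54 and 0.56 for all genes. From SW1990 CD166- cells it was 0.60 and 0.62, beside 0.48 and 0.496.

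Across the lines, limma compared CD166+ with CD166- arrays in a fit that blocked on the line, which left 1 residual degree of freedom. Of 10367 genes, 0 passed an adjusted p under 0.05, which is 0% of those tested, and 160 had an unadjusted p under 0.05. None of the 30 members passed, with adjusted p between 0.922 and 0.998, and 0 had an unadjusted p under 0.05. The direction was the same in both lines for 15 of 30 members, beside 5526 of 10367 genes. Between SW1990 and Panc-1 the same fit called 84 genes, or 0.81%, and 1692 had an unadjusted p under 0.05. No member was called, and 4 had an unadjusted p under 0.05. DDIT3 had a log2 difference of -2.09 ± 0.37 (SE, adjusted p = 0.113 by limma), ASNS of -1.80 ± 0.45 (adjusted p = 0.181 by limma), STC2 of -3.01 ± 0.77 (adjusted p = 0.189 by limma) and NUPR1 of -1.24 ± 0.39 (adjusted p = 0.245 by limma), each SW1990 over Panc-1 with undetected signals as measured. With 2 pairs of arrays an exact two-sided permutation test cannot go below p = 0.5. No source used here says that a population was prepared more than once. The error in this fit is the difference between the lines in their CD166 folds, moderated by the variances of all genes tested. With 1 array for each population, that difference cannot be told apart from noise between arrays.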

How the data were processed

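RNA of 4 sorted populations was measured on 1 Illumina HumanHT-12 v4 array each. The authors used BeadStudio 3.2.3 and deposited, for each probe and array, a mean bead intensity without normalization and a detection p-value. They also deposited a table of intensity values with each array multiplied by 1 factor (0.857, 1.09, 1.05 and 1.04), found here from the values. These factors bring the mean intensities of the arrays to nearly the same value. The scaling is not described in the sources used here, and it was used as an alternative only. No column was left unmapped.

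Background correction (from the detection p-values, offset 16) and quantile normalization used neqc in limma 3.58.1 (R 4.3.3). By the annotation 30111 probes belonged to 1 gene, 8 to several and 17196 to none. Each gene took its probe with the highest mean signal. Folds were counted past 2-fold at a detection p under 0.01. The limma fit took genes detected on at least 2 arrays, with the line as a block and Benjamini-Hochberg adjustment, and was tested on simulated data. Arrays are paired by cell line. As a check, the Panc-1 arrays correlated best with each other and the SW1990 arrays did not. The members and lists, the rule for named genes (all members, ALCAM, markers, up to 4 genes of each other list furthest past 2-fold, and GDF15, SESN2, SLC7A11 and MTHFD2) and the alternatives were chosen with earlier results of these data known. The motif was chosen likewise, and promoter windows were matched by Entrez number. The number of arrays limits the precision.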

Additional observations from a re-analysis of the deposited data

How the results depend on the processing

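The 12 members over 2-fold apart in SW1990 were also counted under other settings. The same 12 were called with a detection p under 0.05, without a filter on dim probes, with undetected signals as measured and with the estimated share of SW1990 CD166+ signal subtracted from the Panc-1 CD166+ array. Without background correction 8 of them passed (ATF3, JDP2, PSPH and SLC38A2 did not), with an offset of 50 all but JDP2, in the scaled values 9 (not ATF3, JDP2 and SLC38A2), with median scaling 10 together with TRIB3 (not ASNS and SLC38A2), and with a gene taken as the average of its probes 10 together with WARS1 (not ATF3 and ASNS). At 1.5-fold 7 members lay above and 11 below in CD166+ against CD166- SW1990 cells, and 6 were higher in Panc-1 than in SW1990 in both populations. At 3-fold these counts were 3 (DDIT4, STC2 and PHGDH), 0 and 1. At 1.5-fold the shares of all genes were 23.8%, 25.1% and 12.1%, and at 3-fold 6.41%, 6.51% and 3.14%. With median scaling the median log2 fold of the members in SW1990 was -0.0851, where that of all genes was 0.21. In Panc-1 no member passed 2-fold, or 1.5-fold, under any of these settings. In the limma comparison of CD166+ with CD166- cells 0 members were called with the replicate block (the line), without it, with an intensity trend, without a filter, in the scaled table and by the methods' t-test after Benjamini-Hochberg adjustment. Between the lines 2 members, DDIT3 and STC2, were called in the scaled table and 0 in the other fits. All genes called between the lines numbered 84, against 188 without the block, 309 in the scaled table, 0 without the filter and 4 by the methods' t-test. The causes of these changes were not tested. Dim members (ATF3, JDP2, NUPR1 and STC2) lie near background in SW1990 CD166- cells, which limits their folds.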
